A study of Mus musculus with 6 samples.

Results

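The genes described here are 10 effectors of the type I interferon response, measured in RNA of the E16.5 mouse humerus shaft: Oasl2, Ifi44, Ifi205, Ifit1, Rsad2, Usp18, Rtp4, Bst2, Slfn4 and Apol6. They are 10 of the 23930 amplicons of the deposited table and were taken by gene symbol, with the difference between the groups already known. Their levels are therefore given as a description, with no p-value, and nothing is supported with them. The Stat3 KO group had 3 samples of the genotype Prrx1Cre; Stat3C/C, in which the transcription factor gene Stat3 is targeted by a Cre driver active in limb bud mesenchyme. The Ctrl group had 3 samples of the genotype Stat3C/+, which the labels also call wild type. It carries 1 conditional allele and no driver is listed for it, so the groups differ in the driver as well as in the number of conditional alleles. Blood cells and the cells that line vessels do not arise from limb bud mesenchyme and are outside the reach of this driver. The RNA was taken from the whole shaft. Whether each replicate came from its own embryo or litter is not in the labels. The p-values therefore cover only the variation among the 6 samples, part of which may be technical.

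Type I interferons are secreted proteins, mainly the alpha and beta forms, that signal through a shared receptor and the kinases JAK1 and TYK2. The signal switches on many genes through a factor built of STAT proteins and IRF9, which binds a DNA motif called the interferon-stimulated response element (ISRE). Many of these genes also answer to interferon gamma, whose STAT dimers bind a second motif, the gamma-activated sequence (GAS). Their products bind viral RNA, block translation, hold budding particles at the membrane or switch the signal off again.

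Values are RPM, reads of an amplicon scaled to the size of the library, at 1 short amplicon per gene. Levels of different genes are not compared, because each amplicon is amplified with its own efficiency. Whole reads could be recovered from the RPM steps and summed to between 9126493 and 13376550 per library. The Stat3 amplicon had 208, 201 and 170 RPM in Stat3 KO libraries, against 211, 201 and 211 RPM in Ctrl libraries, with a limma adjusted p of 0.380 over all genes. The position of this amplicon within Stat3 is unknown here, so it may lie outside the deletion and checks nothing about the labels. Bone, cartilage and muscle markers were present in both groups, with Col1a1 at 27670 ± 2574 RPM in Stat3 KO and 28710 ± 2067 RPM in Ctrl (SD, n = 3 each). The bone sialoprotein gene Ibsp was at 2097 ± 66.9 RPM in Stat3 KO and 4328 ± 319 RPM in Ctrl.

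Promoter windows of 7 of the 10 genes were found in RefSeq (GRCm38.p6), covering 250 bases before to 50 bases after the gene start. Each was searched on both strands for the ISRE core, which is GAAA, any 2 bases and GAAA again, and for the GAS letters TTCNNNGAA, which read the same on both strands. The ISRE core was present in 4 of these 7 windows, against 3.44% of all 32851 promoters of the same length, and the GAS letters in 1 of 7, against 8.30% of all promoters. A match is a description of the letters and not evidence of binding. The 4 windows with an ISRE core are shown because they carry the letters that the type I factor is known to bind. Capitals mark the matches, and lower case marks the rest.
Bst2, chr8:71537423-71537722, minus strand: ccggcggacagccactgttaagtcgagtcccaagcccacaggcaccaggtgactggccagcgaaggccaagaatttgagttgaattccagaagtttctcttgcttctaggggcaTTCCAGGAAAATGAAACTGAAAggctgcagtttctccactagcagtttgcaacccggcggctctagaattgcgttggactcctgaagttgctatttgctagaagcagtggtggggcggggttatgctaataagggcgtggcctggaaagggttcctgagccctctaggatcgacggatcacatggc
Ifi205, chr1:174031706-174032005, minus strand: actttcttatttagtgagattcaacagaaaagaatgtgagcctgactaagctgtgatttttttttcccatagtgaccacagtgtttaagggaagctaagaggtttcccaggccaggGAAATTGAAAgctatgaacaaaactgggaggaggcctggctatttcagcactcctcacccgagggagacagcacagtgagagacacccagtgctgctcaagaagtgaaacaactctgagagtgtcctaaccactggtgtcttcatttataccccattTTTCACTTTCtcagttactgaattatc
Ifit1, chr19:34640639-34640938, plus strand: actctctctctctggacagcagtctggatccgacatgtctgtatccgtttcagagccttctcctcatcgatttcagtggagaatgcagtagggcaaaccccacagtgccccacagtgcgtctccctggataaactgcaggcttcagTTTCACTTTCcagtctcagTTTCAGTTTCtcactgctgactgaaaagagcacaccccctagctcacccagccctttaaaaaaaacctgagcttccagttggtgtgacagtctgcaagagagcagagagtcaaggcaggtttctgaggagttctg
Rsad2, chr12:26456403-26456702, minus strand: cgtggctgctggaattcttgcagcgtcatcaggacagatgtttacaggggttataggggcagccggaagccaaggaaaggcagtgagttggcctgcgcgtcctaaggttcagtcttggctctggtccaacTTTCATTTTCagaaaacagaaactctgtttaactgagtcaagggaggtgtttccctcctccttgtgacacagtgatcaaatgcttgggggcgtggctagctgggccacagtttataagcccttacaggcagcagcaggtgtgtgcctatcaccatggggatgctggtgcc
In the Bst2 window the GAS match, from -136 to -128 relative to the gene start, overlapped an ISRE match from -130 to -121, which in turn overlapped a second from -124 to -115. Ifit1 had 2 separate ISRE matches, from -104 to -95 and from -85 to -76. Rsad2 had 1, from -120 to -111, and Ifi205 had 1 on each side of the start, from -134 to -125 and from 24 to 33. The windows of Oasl2, Ifi44 and Slfn4 held no exact match to either motif. Near matches were not searched for, so this does not show that these genes lack such an element.

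**Figure D1:**
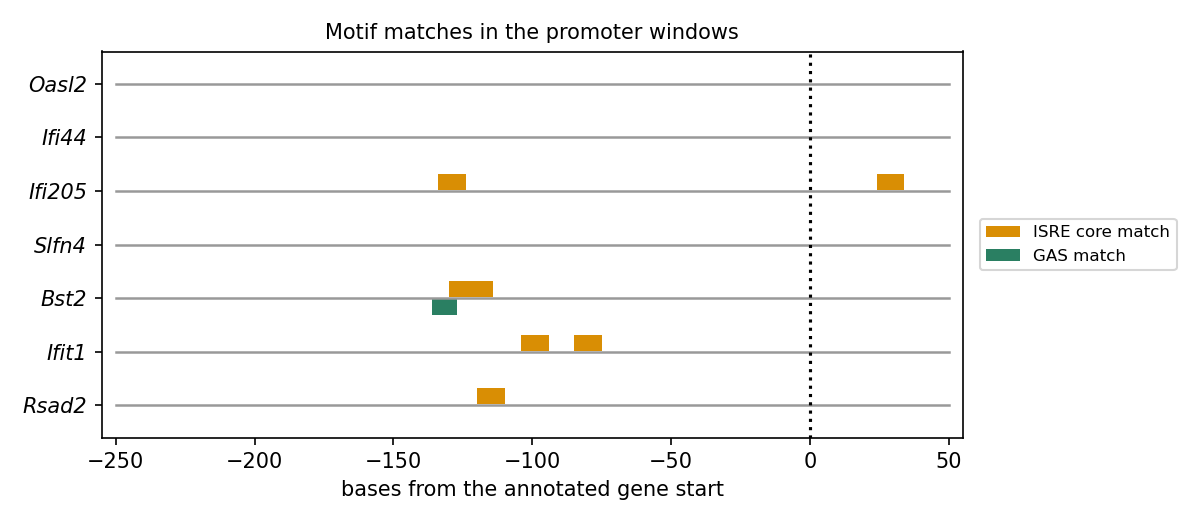
Matches to the ISRE core (orange) and the GAS letters (green) in the promoter windows of 7 of the effector genes, against the distance in bases from the annotated gene start (dotted line). The matches upstream of the start lie between -136 and -76, and 3 windows hold none.

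The effectors that act on viral RNA and its replication were Oasl2, Ifit1 and Rsad2. Oasl2 encodes a protein related to the oligoadenylate synthetases, which make the activator of an RNA-degrading enzyme. It had 11.0, 9.31 and 9.10 RPM in Stat3 KO libraries, against 2.06, 0.822 and 1.48 RPM in Ctrl libraries. All Stat3 KO values were above all Ctrl values, and the means were 9.81 ± 1.05 RPM in Stat3 KO and 1.45 ± 0.620 RPM in Ctrl (SD, n = 3 each). The log2 fold change of RPM + 1, a scale that understates the change of low genes, was 2.17 ± 0.20 (SE) in the fit over all genes. Behind these values stood 85 to 130 reads per library in Stat3 KO and 11 to 24 reads per library in Ctrl.

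Ifit1, whose protein binds viral RNA with an incomplete cap, came next. It had 2.63, 1.86 and 3.48 RPM in Stat3 KO libraries, against 0.859, 1.87 and 1.56 RPM in Ctrl libraries. The groups overlapped, with Stat3 KO replicate 2 just below Ctrl replicate 2. The log2 fold change was 0.59 ± 0.23 (SE). Rsad2 encodes viperin, an enzyme that makes a chain-terminating nucleotide from CTP. Its values were 2.46, 3.29 and 2.15 RPM in Stat3 KO libraries, against 1.80, 1.35 and 2.14 RPM in Ctrl libraries. The lowest Stat3 KO value exceeded the highest Ctrl value by 0.011 RPM, which is less than 1 read, and the log2 fold change was 0.39 ± 0.21 (SE). Both windows shown above for these genes carry an ISRE core.

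Bst2, Rtp4 and Apol6 encode proteins of membranes or of lipid binding. Bst2 encodes tetherin, which holds budding virus particles at the cell surface. It had 31.9, 38.1 and 41.3 RPM in Stat3 KO libraries, against 23.1, 24.9 and 20.7 RPM in Ctrl libraries, with 252 to 404 reads per library over all 6. The groups did not overlap, and the log2 fold change was 0.67 ± 0.12 (SE). Rtp4 encodes a chaperone of G protein-coupled receptors that is also induced by interferon. It had 16.7, 12.9 and 14.8 RPM in Stat3 KO libraries, against 9.11, 7.92 and 4.60 RPM in Ctrl libraries. The groups did not overlap, with Ctrl replicate 3 lowest, and the log2 fold change was 0.98 ± 0.18 (SE).

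Apol6, of the apolipoprotein L family, had the largest log2 fold change of the 10 genes. It had 8.64, 7.56 and 10.1 RPM in Stat3 KO libraries, against 0.773, 0.673 and 0.411 RPM in Ctrl libraries. Its means were 8.77 ± 1.28 RPM in Stat3 KO and 0.619 ± 0.187 RPM in Ctrl (SD, n = 3 each), a ratio of 14.2. The groups lay far apart, with a gap of 6.79 RPM between the lowest Stat3 KO and the highest Ctrl value, and the log2 fold change was 2.59 ± 0.20 (SE).

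Apol6 and Rtp4 each overlap a gene on the opposite strand in the GENCODE M21 annotation (GRCm38). Apol6 (chromosome 15, 77044729 to 77057106, plus strand) overlaps the myoglobin gene Mb (77015487 to 77050670, minus strand), and Rtp4 (chromosome 16, 23520291 to 23614222, plus strand) overlaps the start of the complement protease gene Masp1 (23449417 to 23520815, minus strand). Neither the use of strand in counting nor the position of the amplicons is known here, so reads of overlapping genes may not be separable. Mb was at 43.4 ± 3.46 RPM in Stat3 KO and 30.6 ± 1.34 RPM in Ctrl, with a log2 fold change of 0.49 ± 0.10 (SE, limma adjusted p = 0.00259). Masp1 was at 5.52 ± 0.239 RPM in Stat3 KO and 3.75 ± 0.546 RPM in Ctrl with a limma adjusted p of 0.0676, which missed the threshold of 0.05. The part of these neighbours in the Apol6 and Rtp4 values was not tested.

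Ifi205 and Ifi44 come from families named for their induction by interferon. Ifi205 belongs to the HIN-200 family of nuclear DNA-binding proteins. It had 5.34, 6.03 and 5.72 RPM in Stat3 KO libraries, against 1.89, 1.12 and 1.64 RPM in Ctrl libraries. The groups did not overlap, and the log2 fold change was 1.40 ± 0.19 (SE). Ifi44, a cytoplasmic protein gene, had 4.83, 5.04 and 5.32 RPM in Stat3 KO libraries, against 1.29, 0.897 and 0.493 RPM in Ctrl libraries. Its Stat3 KO values were the closest together of the 10 genes, with a coefficient of variation of 4.83%, and the log2 fold change was 1.70 ± 0.21 (SE).

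The last pair are a schlafen and the negative regulator of the pathway. Slfn4, a schlafen family gene known from myeloid cells, had 2.29, 2.52 and 2.04 RPM in Stat3 KO libraries, against 0.515, 0.897 and 0.329 RPM in Ctrl libraries. The groups did not overlap, on only 20 to 27 reads per Stat3 KO library and 4 to 12 per Ctrl library, and the log2 fold change was 1.07 ± 0.23 (SE). Usp18 encodes the protease that removes an interferon-induced ubiquitin-like modifier and blocks the type I receptor. It had 0.931, 1.21 and 1.64 RPM in Stat3 KO libraries, against 0.773, 1.27 and 0.903 RPM in Ctrl libraries. The groups overlapped, and the log2 fold change was 0.18 ± 0.23 (SE), with a 95% interval from -0.30 to 0.67.

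**Figure D2:**
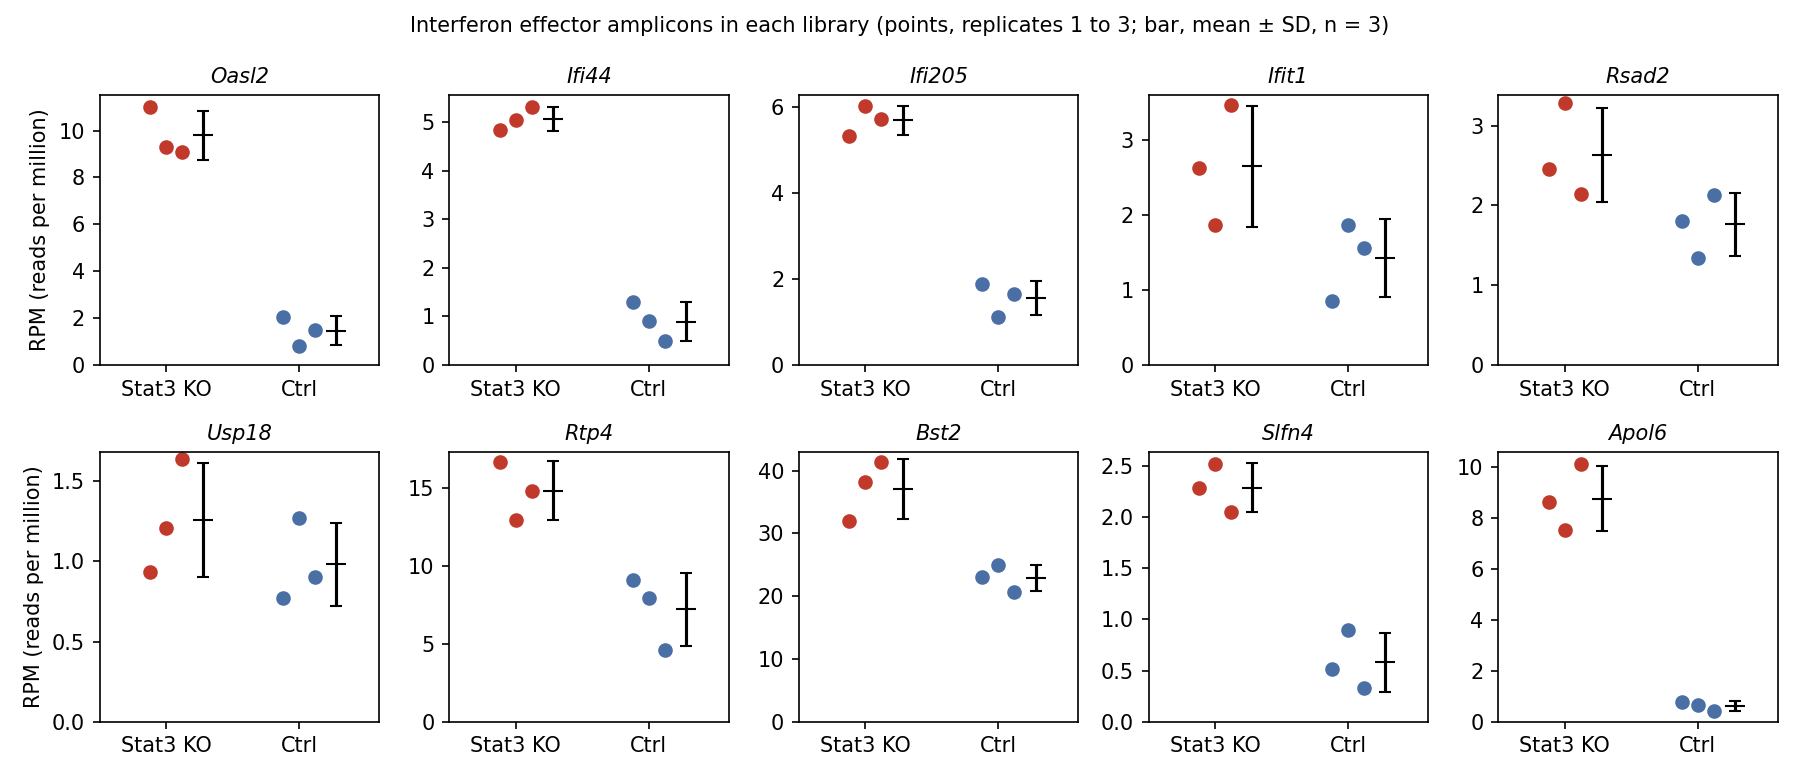
RPM of the 10 effector amplicons in each of the 3 Stat3 KO (red) and 3 Ctrl (blue) libraries, with the group mean ± SD (n = 3) at the right of each group. The groups lie apart for 8 genes, by 0.011 RPM only for Rsad2, and overlap for Ifit1 and Usp18.

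Over the 10 genes the median log2 fold change was 1.02, from 0.18 for Usp18 to 2.59 for Apol6, beside a median of -0.06 for the 12846 genes tested. By the test over all genes 7 were called higher and none lower, where 5.71% of all genes tested were called higher. The groups did not overlap for 8, where 33.8% of all genes tested did not overlap and 11.9% did so with Stat3 KO above. Nothing is read from these counts, because the genes were chosen on this contrast. The 3 not called were Ifit1, Rsad2 and Usp18, and edgeR on the recovered reads gave the same 7 calls, where it called 8.19% of all genes higher and 7.18% lower. All 10 had a mean of at least 1 RPM over the 6 libraries, but Ifi44, Usp18, Slfn4 and Apol6 had a Ctrl mean under 1 RPM and reached it through the Stat3 KO libraries. The summed level of the 10 amplicons was 86.7, 87.9 and 95.7 RPM in Stat3 KO libraries, against 42.2, 41.7 and 34.2 RPM in Ctrl libraries. Stat3 KO replicate 3 held the highest value of its group for 5 of the 10 genes, and Ctrl replicate 3 the lowest of its group for 5.

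The replicates of a group spread furthest beyond counting noise for Rtp4 in Ctrl and Bst2 in Stat3 KO. The chi-square of the reads per degree of freedom averages 1 when counting alone sets the spread. It exceeded 2 for 3 genes in Stat3 KO and for 5 in Ctrl. With 3 libraries there are only 2 degrees of freedom, so counting alone can also give values a little over 2. Such were Ifit1 (2.31 in Stat3 KO, 2.26 in Ctrl), Rtp4 in Stat3 KO (2.43), and Ifi44 (2.125) and Bst2 (2.45) in Ctrl. Oasl2 had 3.37 in Ctrl. The chi-square value was highest for Rtp4 in Ctrl, at 9.14, and for Bst2 in Stat3 KO, at 6.72. It was 0.126 for Ifi44, 0.222 for Ifi205 and 0.235 for Slfn4 in Stat3 KO, below what counting noise alone gives on average.

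Relatives of the 10 genes were tested in the same fit. Of the other oligoadenylate synthetase genes, 2 of 11 reached 1 RPM and neither was called. Oas1a was at 1.40 ± 0.466 RPM in Stat3 KO and 1.19 ± 0.914 RPM in Ctrl, and Oas2 at 1.64 ± 0.465 RPM in Stat3 KO and 1.80 ± 0.137 RPM in Ctrl (SD, n = 3 each). Ifit2, a relative of Ifit1 on the same chromosome, was at 5.003 ± 0.417 RPM in Stat3 KO and 5.87 ± 0.725 RPM in Ctrl (log2 fold change -0.19 ± 0.17, limma adjusted p = 0.467). In the HIN-200 family 4 relatives of Ifi205 reached 1 RPM and none was called. The nearest to the threshold was Ifi203, at 5.25, 5.59 and 6.85 RPM in Stat3 KO libraries, against 2.84, 4.41 and 4.60 RPM in Ctrl libraries (log2 fold change 0.49 ± 0.19, limma adjusted p = 0.0713). Mndal (0.07), Ifi204 (0.17) and the DNA sensor gene Aim2 (0.32) were the others, with their log2 fold changes in parentheses. Members of the HIN-200, schlafen and apolipoprotein L families resemble each other closely, so their reads may be shared between copies.

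The relatives called higher were Ifi44l and Slfn2. Ifi44l, the neighbour and relative of Ifi44, had 1.95, 1.42 and 1.84 RPM in Stat3 KO libraries, against 0.258, 0.299 and 0.821 RPM in Ctrl libraries. The groups did not overlap (log2 fold change 0.92 ± 0.24, limma adjusted p = 0.0111), and without Ctrl replicate 2 the adjusted p was 0.0539. Without Stat3KO replicate 1 or 3 Ifi44l fell under the filter and was not tested, and DESeq2 gave it no adjusted p. Its Ctrl mean of 0.459 RPM lay under the filter, so it reached the test through the Stat3 KO libraries and had to differ. Slfn2, which keeps T cells and monocytes quiescent in mice, had 21.5, 23.0 and 27.2 RPM in Stat3 KO libraries, against 16.8, 17.05 and 15.6 RPM in Ctrl libraries. Here too the groups did not overlap (log2 fold change 0.51 ± 0.12, limma adjusted p = 0.00712). The other 5 schlafens that reached 1 RPM were not called and lay on both sides of 0, with log2 fold changes of -0.42 for Slfn8, -0.30 for Slfn9, 0.17 for Slfn3, 0.23 for Slfn5 and 0.38 for Slfn10-ps. None of the 9 apolipoprotein L relatives and neither receptor transporter relative in the table reached 1 RPM.

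**Figure D3:**
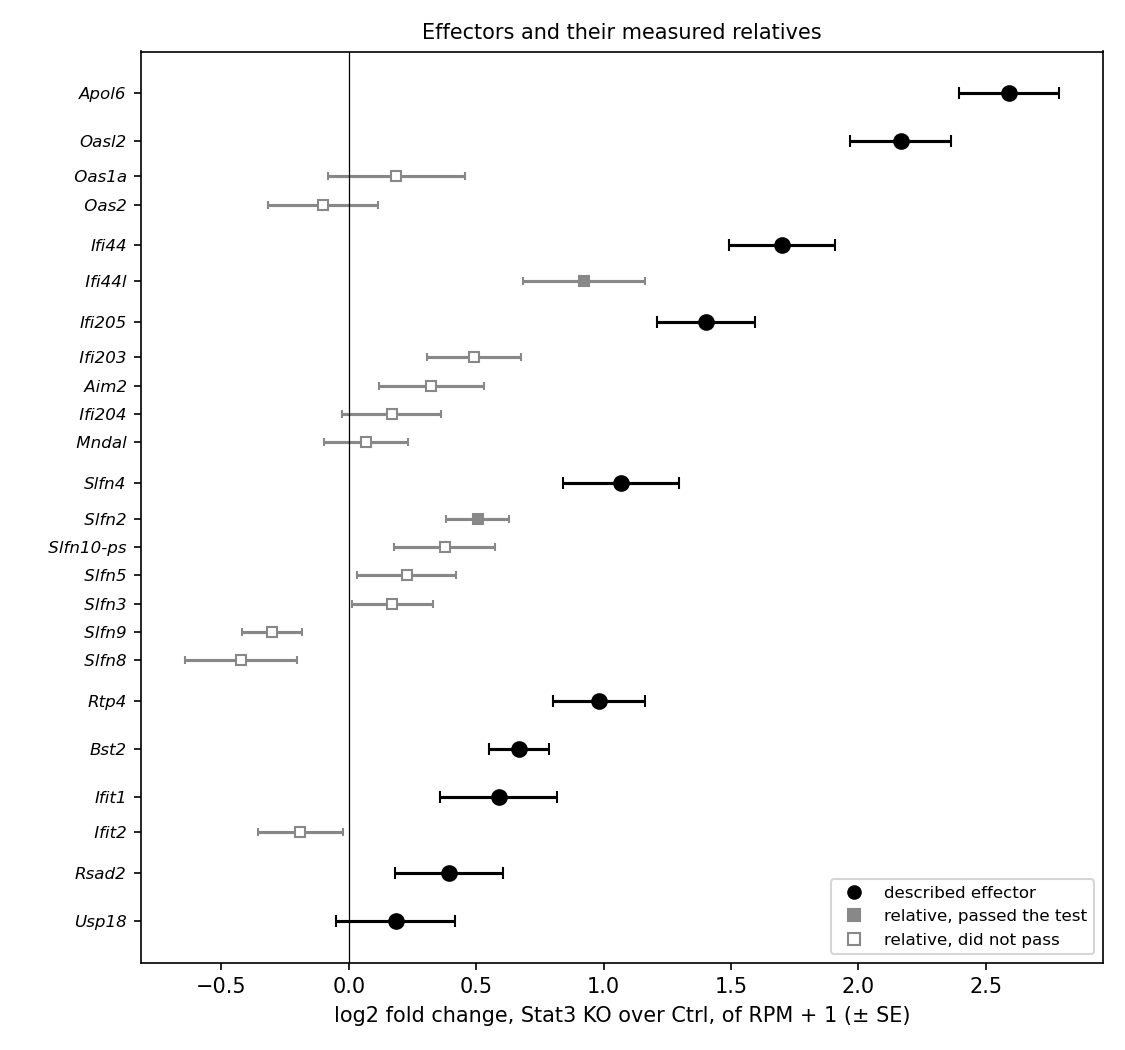
Log2 fold change of RPM + 1, Stat3 KO over Ctrl, with its SE for the 10 effectors (black) and, under each, its relatives with a mean of at least 1 RPM (grey squares, filled where the test over all genes was passed). Ifi44l and Slfn2 are the filled squares, and the other relatives lie between -0.42 and 0.49.

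The genes next to the effectors on the chromosome were also compared. Of 20 genes with an amplicon, the nearest on each side of each effector that does not overlap it, 10 reached 1 RPM, and of these 1 was called higher and 1 lower, where 16.7% of all genes tested were called in either direction. The overlapping genes Mb, called higher, and Masp1, not called, are not among the 20. The higher one was Ifi44l. The lower one was Slc6a13, a GABA transporter gene beside Usp18, at 12.1 RPM in Stat3 KO and 17.6 RPM in Ctrl (log2 fold change -0.50, limma adjusted p = 0.0108). Cmpk2, an interferon-induced nucleotide kinase gene 12752 bases from Rsad2, was at 11.7 ± 1.08 RPM in Stat3 KO and 9.28 ± 1.90 RPM in Ctrl and did not pass (log2 fold change 0.32 ± 0.15, limma adjusted p = 0.156). Plvap and Mvb12a, on either side of Bst2, had log2 fold changes of 0.05 and 0.20 and did not pass.

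Interferon transcripts themselves were at the limit of detection. The 16 ligand amplicons in the table, for type I, II and III interferons, together gave 7, 5 and 9 reads in Stat3 KO libraries, against 5, 5 and 6 reads in Ctrl libraries. Scaled to library size, the 16 amplicons summed to 0.548 to 0.92 RPM in Stat3 KO libraries, against 0.375 to 0.492 RPM in Ctrl libraries, without overlap. No single one had more than 4 reads in a library. Ifnb1, the interferon beta gene, had 0 reads in each Stat3 KO library and 0, 0 and 2 reads in Ctrl libraries. Ifng, the interferon gamma gene, had 0, 0 and 1 reads in Stat3 KO libraries and 0 reads in each Ctrl library. A count of 0 allows up to 3 reads, which is 0.224 to 0.329 RPM in these libraries, for counting error only. Whether ligand transcripts differed was not tested, since no ligand reached the 1 RPM filter and the sums rest on these few reads.

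With the deposited scaling, receptors and signalling genes of the pathway were lower or did not pass. Of 14 tested genes none was called higher and 3 were called lower, where 5.71% and 11.0% of all genes tested were called in those directions. Their median log2 fold change was -0.04. Ifnar2, the signalling chain of the type I receptor, had 23.0, 20.4 and 21.3 RPM in Stat3 KO libraries, against 27.0, 31.4 and 33.6 RPM in Ctrl libraries (log2 fold change -0.48 ± 0.12, limma adjusted p = 0.00639). Jak2, a kinase of the interferon gamma and gp130 receptors, was at 33.6 ± 4.07 RPM in Stat3 KO and 46.8 ± 3.37 RPM in Ctrl (-0.47 ± 0.11, limma adjusted p = 0.00460). Ifnar2 and Jak2 had groups that did not overlap. Ifnar1, the other chain of the type I receptor, lay on the other side and did not pass (log2 fold change 0.23, limma adjusted p = 0.122). It had 94.8, 102.9 and 93.7 RPM in Stat3 KO libraries, against 91.9, 89.3 and 69.15 RPM in Ctrl libraries, without overlap. Tyk2 and Stat2 did not pass either, with log2 fold changes of -0.02 and -0.14. Irf9, the DNA-binding part of the type I factor, had 12.6, 7.67 and 7.77 RPM in Stat3 KO libraries, against 14.4, 13.7 and 12.6 RPM in Ctrl libraries (-0.52 ± 0.16, limma adjusted p = 0.0308). Its groups overlapped, edgeR did not call it (adjusted p = 0.0716), and its limma adjusted p was 0.101 to 0.148 without Stat3KO replicate 2 or 3 or Ctrl replicate 1 or 2. Jak1, Il10rb and Ptpn11 did not pass, with log2 fold changes of 0.21, 0.24 and 0.00. For Jak1 this depended on the setting. Its groups did not overlap, and it was called higher with TMM scaling (limma adjusted p = 0.0255) and median-of-ratios scaling (limma adjusted p = 0.0196). The edgeR adjusted p of Jak1 was 0.0264 and the DESeq2 adjusted p 0.0092. Il10rb was called higher only without Ctrl replicate 3 (limma adjusted p = 0.0249).

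Sensors and regulators of the response formed the next list. Of 21 tested genes 5 were higher and 1 lower, where 5.71% and 11.0% of all genes tested were called in those directions, with a median log2 fold change of 0.23. Zbp1, a sensor of Z-form nucleic acids, had 3.05, 3.29 and 1.94 RPM in Stat3 KO libraries, against 0.344, 0.299 and 0.246 RPM in Ctrl libraries (log2 fold change 1.52 ± 0.23, limma adjusted p = 1.08e-04). Its Ctrl mean lay under 1 RPM, so it too reached the test through the Stat3 KO libraries and had to differ. Irf7, the factor that amplifies type I interferon production, had 4.15, 6.68 and 6.75 RPM in Stat3 KO libraries, against 2.92, 2.24 and 2.96 RPM in Ctrl libraries (0.87 ± 0.20, limma adjusted p = 0.00409). Irf8, a factor of macrophages and dendritic cells, was at 17.5 ± 2.14 RPM in Stat3 KO and 9.65 ± 0.394 RPM in Ctrl (0.79, limma adjusted p = 3.44e-04). Ifih1, the sensor of long double-stranded RNA, was at 3.94 ± 1.06 RPM in Stat3 KO and 1.83 ± 0.380 RPM in Ctrl (0.79, limma adjusted p = 0.0116), and without Stat3KO replicate 1 its adjusted p was 0.0723. Irf1 rose by 0.74 on the log2 scale (limma adjusted p = 5.18e-05). Each of these 5 genes had groups that did not overlap. The ubiquitin ligase gene Trim25 fell by 0.53 on the log2 scale (limma adjusted p = 0.0273), with an edgeR adjusted p of 0.0509 and a limma adjusted p of 0.0666 to 0.115 without Stat3KO replicate 1 or 2 or Ctrl replicate 1 or 2. The adaptors Mavs and Tmem173 and the kinase Tbk1 did not pass, with log2 fold changes of 0.05, 0.14 and 0.07.

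Effectors outside the 10 genes formed the last list. Of 48 tested 8 were higher, 4 were lower and 36 did not pass, where 5.71% of all genes tested were higher and 11.0% lower, with a median log2 fold change of 0.10. Ifi44l, with the limit given above, was among the higher genes. Epsti1 was at 3.60 ± 0.562 RPM in Stat3 KO and 1.61 ± 0.398 RPM in Ctrl (log2 fold change 0.82 ± 0.20, limma adjusted p = 0.00848). Parp9, an ADP-ribosyltransferase family gene, was at 22.01 ± 1.83 RPM in Stat3 KO and 13.5 ± 0.389 RPM in Ctrl (0.67, limma adjusted p = 7.86e-04), and Lgals3bp at 27.2 ± 2.65 RPM in Stat3 KO and 17.5 ± 1.14 RPM in Ctrl (0.60, limma adjusted p = 0.00146). Groups of these 3 genes did not overlap. Parp14 rose by 0.60 (limma adjusted p = 0.0401), with an adjusted p of 0.0581 to 0.195 without Stat3KO replicate 1 or 2 or Ctrl replicate 1 or 2. Samhd1, which breaks down nucleotides needed by viruses, had 12.9, 8.44 and 5.93 RPM in Stat3 KO libraries, against 14.9, 12.8 and 13.9 RPM in Ctrl libraries (-0.61 ± 0.18, limma adjusted p = 0.0238). Its groups overlapped, edgeR did not call it (adjusted p = 0.0584), and its limma adjusted p was 0.0586 to 0.133 without Stat3KO replicate 2 or 3 or Ctrl replicate 1 or 2. The abundant Ly6e, Ube2l6 and Ifi27 did not pass, with log2 fold changes of -0.22, 0.11 and 0.09. Ly6e had a limma adjusted p of 0.0525. It was 0.0489 with a filter at a mean of 5 RPM or with the replicate number as a block, and 0.155 with TMM scaling.

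Over these lists together, 83 of 110 genes in the table were tested. Of these 13 were higher (15.7%) and 8 lower (9.64%), where 5.71% and 11.0% of all genes tested were called in those directions. The 13 include Zbp1 and Ifi44l, which had a Ctrl mean under 1 RPM and reached the test through the Stat3 KO libraries. The median log2 fold change was 0.10, beside -0.06 for all genes tested. The higher and lower counts were 16 and 4 with edgeR, 12 and 2 with DESeq2 and 16 and 7 with median-of-ratios scaling. They were 7 and 6 without Stat3KO replicate 1, 9 and 3 without Stat3KO replicate 2, 11 and 5 without Stat3KO replicate 3, 9 and 3 without Ctrl replicate 1 and 8 and 3 without Ctrl replicate 2. Of the 13 higher genes 7 were called without each of the 6 libraries in turn, and of the 8 lower genes 2 were. Over all genes tested 733 were higher and 1409 lower. So 34.2% of the calls were higher with the deposited scaling, against 50.4% with TMM and 55.1% with median-of-ratios scaling. The all-gene counts were 1052 higher and 922 lower with edgeR, 998 and 775 with DESeq2 and 1079 and 881 with median-of-ratios scaling.

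**Figure D4:**
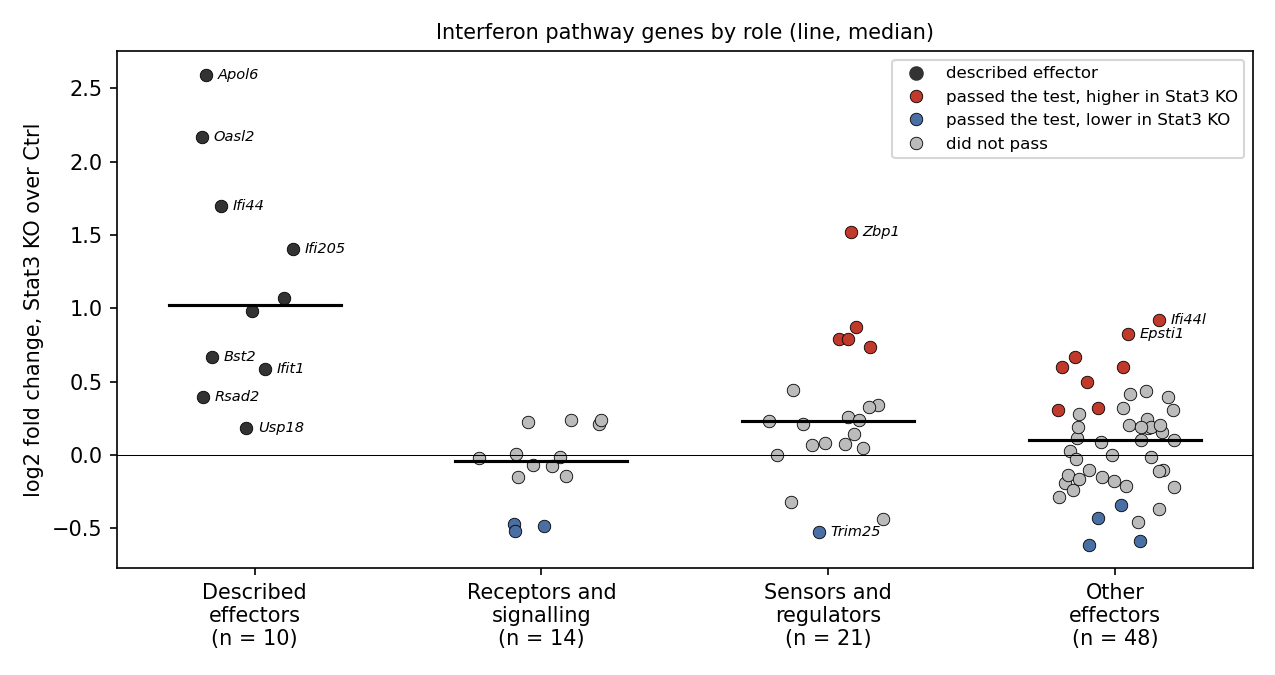
Log2 fold change of RPM + 1, Stat3 KO over Ctrl, for the 10 described effectors (dark), 14 receptor and signalling genes, 21 sensors and regulators and 48 other effectors, coloured by the result of the test over all genes, with the median of each set as a line. The medians are 1.02, -0.04, 0.23 and 0.10.

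Macrophage and NK cell markers did not all move one way beside these genes. In bulk tissue, fewer cells of a type and less RNA per cell cannot be told apart. Of 13 tested macrophage markers 5 were higher, 1 was lower and 7 did not pass, where 5.71% of all genes tested were higher and 11.0% lower. The list of 14 summed to 524 to 564 RPM in Stat3 KO libraries, against 421 to 449 RPM in Ctrl libraries. Lyz2, the lysozyme gene, at 230.3 ± 6.91 RPM in Stat3 KO and 133.9 ± 14.5 RPM in Ctrl, and Cd68, at 124.9 ± 2.52 RPM in Stat3 KO and 89.7 ± 7.18 RPM in Ctrl, made up more than that difference. Without these genes, a choice made after their values were seen, the sums of the other 12 overlapped between the groups. They were 179 to 205 RPM in Stat3 KO libraries, against 197 to 215 RPM in Ctrl libraries. Higher genes among these 12 included Cd14, at 10.07 ± 1.63 RPM in Stat3 KO and 3.005 ± 0.610 RPM in Ctrl (log2 fold change 1.47, limma adjusted p = 5.92e-06). Itgam was at 18.65 ± 1.57 RPM in Stat3 KO and 13.74 ± 0.523 RPM in Ctrl (0.41, limma adjusted p = 0.0265). Adgre1, which encodes the macrophage antigen F4/80, was at 10.8 ± 2.47 RPM in Stat3 KO and 7.34 ± 0.666 RPM in Ctrl (limma adjusted p = 0.0412), while the receptor gene Csf1r was at 29.6 ± 2.57 RPM in Stat3 KO and 39.9 ± 3.43 RPM in Ctrl (limma adjusted p = 0.0108). Of 11 measured T and NK cell markers only 1 reached 1 RPM, and the list summed to 7.12 to 9.65 RPM in Stat3 KO libraries, against 2.39 to 5.07 RPM in Ctrl libraries. The tested one, the NK receptor gene Klrb1c, had 4.83, 3.29 and 5.21 RPM in Stat3 KO libraries, against 1.89, 0.822 and 1.89 RPM in Ctrl libraries (log2 fold change 1.12 ± 0.22, limma adjusted p = 0.00155). Markers below 1 RPM were mixed: the granzyme gene Gzma had 14, 16 and 8 reads in Stat3 KO libraries, against 3, 3 and 4 reads in Ctrl libraries, while Nkg7 had 5, 1 and 4 reads in Stat3 KO libraries, against 6, 3 and 5 reads in Ctrl libraries. The T cell gene Cd3e had 8, 0 and 2 reads in Stat3 KO libraries, against 1 read in each Ctrl library.

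Lists of other blood cells were summed in the same way. The neutrophil list summed to 43.3 to 49.5 RPM in Stat3 KO libraries, against 98.0 to 99.5 RPM in Ctrl libraries, with 5 of 7 tested markers lower, where 11.0% of all genes tested were lower, and none higher. The B cell list, with 1 tested marker that did not pass, summed to 1.64 to 2.19 RPM in Stat3 KO libraries, against 2.15 to 2.63 RPM in Ctrl libraries. Plasmacytoid dendritic cells are a main source of type I interferon, and their receptor gene Siglech had 5, 1 and 3 reads in Stat3 KO libraries, against 4, 8 and 2 reads in Ctrl libraries. The sum of that cell type's list, 516 to 562 RPM in Stat3 KO and 558 to 589 RPM in Ctrl, came mostly from Tcf4, Cox6a2 and Runx2, which bone or muscle also expresses. Of its 5 tested markers none was higher and Runx2 was lower. The part of any of these cell types in the levels of the 10 effectors was not tested.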

How the data were processed

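The authors deposited RPM values, which are reads scaled to library size, for 23930 amplicons in 3 Stat3 KO and 3 Ctrl samples. Per the labels' protocols, RNA was extracted with Trizol and libraries were made with the Ion AmpliSeq mouse transcriptome panel, which reads 1 amplicon per gene. Aligner, counter and build: not given in the sources used here. Whole reads were recovered from the RPM steps: 100% of the values above 0 came out whole within 0.1 read, with 1 read worth 0.0748 to 0.110 RPM. Precision rests on these read numbers, and limits taken from them cover counting error only. Date-like symbols (27) were read back from amplicon names.

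Levels entered the fit as log2(RPM + 1), for the 12846 genes averaging 1 RPM or more over all samples, and were compared with limma 3.58.1 (empirical Bayes with a trend, two-sided, Benjamini-Hochberg over all genes, threshold 0.05) in R 4.3.3. Alternatives were other pseudocounts, filters and scalings, edgeR 4.0.16 and DESeq2 1.42.0 on the recovered reads, the replicate number as a block, and leaving out each library. Replicate pairs within a group differed beyond counting noise (chi-square per degree of freedom 4.54 to 7.80), so none is a copy of another. Each library was counted as 1 replicate, but this value does not show that the replicates came from different embryos.

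The 10 genes and all gene lists were chosen with earlier results of these data known. The rule took the 10 effectors, Stat3, in each interferon list up to 6 called genes with the greatest change and up to 3 abundant genes that were not called, every relative with a mean of at least 1 RPM, chromosome neighbours, a few defining cell markers and the 5 genes most like the effectors' mean. Klrb1c, Ifnb1, Ifng, Tcf4, Cox6a2, Runx2, Lyz2, Cd68, Gzma, Nkg7, Oas1b, Mx2, Mb, Masp1 and the genes named with the motif counts were chosen after their values were seen. So were Cd14, Itgam, Ifnar1, Tyk2 and Stat2. Positions are those of GENCODE M21 on GRCm38, matched by symbol, and promoters those of RefSeq on GRCm38.p6. Of the 119 other interferon genes listed, 110 had an amplicon and the rest were not analysed here. Figures were drawn with matplotlib 3.10.9.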

Additional observations from a re-analysis of the deposited data

Results flagged for a closer look

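Signal was also present below the 1 RPM filter: of 50 such interferon genes and relatives, none of them tested, 3 had at least 3 reads in every Stat3 KO library and lay above every Ctrl library, beside 139 of all 11084 genes below the filter. Oas1g averaged 0.893 RPM in Stat3 KO and 0.210 RPM in Ctrl, from 8, 8 and 11 reads in Stat3 KO libraries, against 1, 4 and 3 reads in Ctrl libraries. Oas3 averaged 0.565 RPM in Stat3 KO and 0.110 RPM in Ctrl, from 10, 4 and 4 reads in Stat3 KO libraries, against 2, 1 and 1 reads in Ctrl libraries. Phf11d averaged 1.15 RPM in Stat3 KO and 0.463 RPM in Ctrl, from 11, 10 and 14 reads in Stat3 KO libraries, against 8, 5 and 4 reads in Ctrl libraries. They were picked by their values, no test was run on them, and several Ctrl values are within the 3 reads that a count of 0 allows. By the same rule turned round 2 of the 50 lay lower in Stat3 KO, beside 166 of the 11084. Mx2 had 6, 4 and 2 reads in Stat3 KO libraries, against 7, 9 and 15 reads in Ctrl libraries. Oas1b had 3, 1 and 2 reads in Stat3 KO libraries, against 9, 14 and 8 reads in Ctrl libraries.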

How the results depend on the processing

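The 10 effectors kept their direction and their side of the threshold in all 143 values that the 15 alternatives gave, apart from adjusted p-values that DESeq2 did not give for Slfn4 and Usp18. Their median log2 fold change of 1.02 was 1.46 with a pseudocount of 0.1 RPM, 0.46 with 10 RPM, 1.52 with edgeR and 1.53 with DESeq2, and 0.84 to 1.14 without each library in turn. A filter at a mean of 5 RPM left 3 of the effectors and 3 calls, since the others were too low to be tested. Of other interferon genes, that filter left 7 called higher and 9 lower, where the filter at 1 RPM gave 13 higher and 8 lower. Without a filter 3 were called lower, against 4 with edgeR and 2 with DESeq2. Leaving out each library gave 7 to 12 higher and 3 to 7 lower interferon genes, and 444 to 705 higher and 729 to 1314 lower genes over the whole table. Genes called lower over the whole table numbered 869 without a filter, 881 with median-of-ratios scaling, 922 with edgeR and 775 with DESeq2, against 1052 and 998 called higher by edgeR and DESeq2. The cause of these shifts was not tested. Genes that did not pass and lay near 0 changed sign on leaving out a library. Ptpn11 ranged from -0.040 without Stat3KO replicate 2 to 0.044 without Ctrl replicate 3, and was -0.012 and -0.022 without Ctrl replicates 1 and 2. Tbk1 ranged from -0.108 without Ctrl replicate 1 to 0.169 without Ctrl replicate 3, and was -0.0028 without Stat3KO replicate 1. Mavs ranged from -0.0047 without Ctrl replicate 1 to 0.106 without Stat3KO replicate 3. Whether the replicate numbers pair the samples was not settled. Same-numbered deviations correlated at 0.0126, -0.0193 and 0.107, against -0.0983 to 0.0979 for other numbers, and not every sample correlated best with its own number. Deviations from a group mean of 3 samples depend on one another, so these values cannot exclude a pairing. With the replicate number as a block, 836 genes were higher and 1626 lower over the whole table and 14 and 11 among interferon genes. Depth limits the low genes: Slfn4 had 4 to 12 reads per Ctrl library.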

Other observations

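Other interferon genes were searched for the ISRE core in the same promoter windows. It was found in 28.2% of their 117 promoters, beside 2.97% of the promoters of all genes tested, and the GAS letters in 21.4%, beside 6.75%. Among tested genes with a window, the ISRE core was present for 1 of 10 called higher (Ifih1), for 1 of 7 called lower (Shisa5) and for 12 of 49 not called, among them Oas1a, Stat2, Eif2ak2 and Ddx58. These are counts of letters in short windows, with no test.

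The 5 other genes whose log2 values over the 6 libraries were most like the mean of the 10 effectors were Acin1, Serpina3f, Pip4k2a, Psmb9 and Dyrk2, with Pearson correlations from 0.9975 for Dyrk2 to 0.9991 for Acin1. The libraries form 2 groups, so this likeness mostly follows the difference between the groups, and 221 genes reached 0.95. Serpina3f, a serine protease inhibitor gene, had 10.1, 10.8 and 10.9 RPM in Stat3 KO libraries, against 0.601, 0.374 and 0.246 RPM in Ctrl libraries. Psmb9, an immunoproteasome subunit gene, had 2.03, 1.86 and 2.15 RPM in Stat3 KO libraries, against 0.773, 0.748 and 0.657 RPM in Ctrl libraries. Serpina3f and Psmb9 had Ctrl means of 0.407 and 0.726 RPM, so both reached the test through the Stat3 KO libraries and had to differ. Acin1, the most alike, had 99.25, 96.75 and 105.8 RPM in Stat3 KO libraries, against 34.4, 29.8 and 26.6 RPM in Ctrl libraries. The log2 fold change was 0.35 for Pip4k2a and 0.54 for Dyrk2. Within the 10 effectors, the correlation with the mean of the other 9 was 0.998 for Apol6 and 0.990 for Ifi44, against 0.703 for Ifit1, 0.666 for Rsad2 and 0.479 for Usp18.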
